A study of Homo sapiens with 21 samples.

Results

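The 5 genes NSD1, NSD2, NSD3, SETD2 and ASH1L, which encode enzymes that methylate lysine 36 of histone H3 (H3K36), were followed through RNA sequencing of 21 libraries from 17 cancer cell lines. They were taken by symbol from 53515 genes in the deposited count files, and all 5 were found there. The set was chosen on measured values, since NSD1 was selected for having almost no counts in HepG2 and NSD3 for having none in 1 library of HCC4006P1. Those values are therefore given as a description, without a test.

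The study paired 7 parental (treatment-naive) cell lines with 10 cell lines made resistant by exposure to a drug, and asked which changes accompany resistance. HepG2 (liver) gave the sorafenib-resistant HepG2S1 and HepG2S3, and Panc 03.27 (pancreas), called PancVB here, gave PancB1Q and PancB1V, which resist 5-fluorouracil. Of the lung adenocarcinoma cell lines, HCC4006P1 gave the erlotinib-resistant HCC4006ER, HCC4006P2 the gefitinib-resistant HCC4006GR, and HCC827P the gefitinib-resistant HCC827GR. Of the ovarian cell lines, UWB1.289 gave U10 and U100, both made resistant to olaparib, and IGROV-1 gave IGROV-1/CDDP, made resistant to cisplatin. There were 2 libraries for each of 4 cell lines (HepG2, HepG2S3, HCC4006ER and HCC4006P1) and 1 for each of 13. The labels do not say whether paired libraries came from separate cultures, so p-values measure only the spread between these libraries. Whether a resistant cell line was 1 clone or a mixed population is not given in the sources used here.

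H3K36 methylation is laid down on the bodies of active genes and on the chromatin between them. NSD1, NSD2 and NSD3 are related enzymes that add the first methyl groups to this lysine, and ASH1L, a Trithorax-group protein, does the same at a smaller set of genes. SETD2 travels with elongating RNA polymerase II and makes the trimethylated form. Loss of 1 copy of NSD1 causes Sotos syndrome, NSD2 is overexpressed through a translocation in a subset of multiple myeloma, and SETD2 is a recurrently mutated tumour suppressor. The mark is read by PWWP domain proteins, among them the DNA methyltransferases DNMT3A and DNMT3B, and is removed by some KDM2 and KDM4 demethylases.

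In GRCh37 coordinates, NSD1 lies on the plus strand of chromosome 5 (176558831 to 176727214) and NSD2 on the plus strand of chromosome 4 (1873120 to 1983934). NSD3 lies on the minus strand of chromosome 8 (38127222 to 38239790), SETD2 on the minus strand of chromosome 3 (47057918 to 47205603) and ASH1L on the minus strand of chromosome 1 (155305059 to 155532953). The values count reads over the exons of a whole gene, so no exon, intron or UTR is told apart. NSD3 overlaps the opposite-strand gene DDHD2, and whether the counting used strand is not given in the sources used here, so reads from the overlap are uncertain. The other 4 genes overlap only pseudogenes, small RNAs and other non-coding transcripts, whose own counts came to at most 1.22% of those of the member.

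The libraries held 9851195 to 36639473 counts on genes, and 3 counts, the smallest number taken as detected, corresponded to at most 0.388 counts per 1000000 counts (CPM). In HCC4006P1 replicate 1 the counts stop partway along chromosome 7 if chromosomes are sorted by the alphabet. Only 19 counts fall on the 8696 genes after that point, 1679 of which had 50 or more counts in replicate 2. The denominator of CPM was therefore the total count on the 36404 genes before it. The liver markers ALB, APOA1, AFP, TTR and HNF4A summed to 20483 CPM in HepG2 and to 1.03 and 21.8 CPM in HepG2S1 and HepG2S3, with APOA1, TTR and HNF4A at 1.03 CPM or less in those resistant cell lines. The lung markers NKX2-1, NAPSA and SFTPB summed to 0.458 and 0.664 CPM in HCC4006P1 and HCC4006ER, against 330.2 in HCC4006P2 and 124.9 in HCC827P. The defining markers of the labelled tissue were thus at or near 0 in HepG2S1, HepG2S3, HCC4006P1 and HCC4006ER, whose part in the results was not tested. PTPRC and CD3E, markers of blood cells, stayed below 1 CPM in all 17 cell lines. CDH5, a marker of vessel cells, had 53.3 to 87.2 CPM in PancVB, PancB1Q and PancB1V, 57.3 CPM in U100 and 105.9 CPM in U10.

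The start regions of NSD1 and SETD2 are shown because NSD1 is the member missing in HepG2 and SETD2 the most evenly expressed one. RefSeq (GRCh38.p14) lists windows of 300 bases, 250 before and 50 after a start, for 4 of the 5 genes, and 5 such windows for NSD1. CpG dinucleotides, whose cytosine is the usual site of DNA methylation, are in capitals. Methylation was not analysed here. The first NSD1 window is chr5:177131548-177131847 (plus strand), the second is chr5:177133523-177133822 (plus strand), and that of SETD2 is chr3:47164064-47164363 (minus strand).
NSD1, window with the fewest CpG: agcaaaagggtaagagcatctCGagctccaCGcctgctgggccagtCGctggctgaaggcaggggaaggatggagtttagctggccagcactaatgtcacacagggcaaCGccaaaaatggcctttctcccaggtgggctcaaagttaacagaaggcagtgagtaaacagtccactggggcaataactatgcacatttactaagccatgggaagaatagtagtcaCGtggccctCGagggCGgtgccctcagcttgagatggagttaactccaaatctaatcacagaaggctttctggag
NSD1, window with the most CpG: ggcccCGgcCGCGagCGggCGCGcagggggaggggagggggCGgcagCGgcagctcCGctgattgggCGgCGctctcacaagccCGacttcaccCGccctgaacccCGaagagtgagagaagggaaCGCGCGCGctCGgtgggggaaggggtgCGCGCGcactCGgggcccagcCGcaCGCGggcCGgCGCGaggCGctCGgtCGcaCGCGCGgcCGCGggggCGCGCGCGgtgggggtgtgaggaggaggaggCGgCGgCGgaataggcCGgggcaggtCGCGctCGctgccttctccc
SETD2: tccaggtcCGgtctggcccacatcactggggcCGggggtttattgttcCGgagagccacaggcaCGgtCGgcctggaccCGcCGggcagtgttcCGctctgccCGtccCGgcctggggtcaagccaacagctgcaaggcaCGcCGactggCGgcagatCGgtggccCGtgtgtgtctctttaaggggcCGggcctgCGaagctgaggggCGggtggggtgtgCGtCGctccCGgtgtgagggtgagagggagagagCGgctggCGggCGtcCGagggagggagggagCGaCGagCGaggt

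The 5 NSD1 windows held 7, 19, 37, 48 and 26 CpG along the chromosome. The window with 48 CpG was matched or exceeded by 1.98% of all 35116 windows in the table (searched as CG, which reads the same on both strands), and the median window held 14. SETD2 had 28 CpG in its window, ASH1L 30 and NSD2 63. At least 1 CpG-dense window was therefore listed for each of these 4 genes, including NSD1, and nothing follows from this about its methylation in any cell line.

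NSD1 was expressed at a similar level in 16 of the 17 cell lines and was almost without reads in HepG2. HepG2 replicate 1 held 5 NSD1 counts (0.167 CPM) and replicate 2 held 4 (0.142 CPM), which is just above the limit of 3 counts taken as detected. HepG2S1 held 2257 counts (291.9 CPM), and the libraries of HepG2S3 held 5462 and 5136 (212.8 and 205.3 CPM). Both resistant cell lines were thus far above their parental cell line and inside the range of the others. Pooled over libraries, NSD1 CPM was 1882 times higher in HepG2S1 than in HepG2 (95% counting interval 989.0 to 3583) and 1349 times higher in HepG2S3 (709.3 to 2564). These intervals hold counting error alone, as reads copied by PCR do not stand for separate molecules. In the 14 cell lines outside the HepG2 family, NSD1 ranged from 176.5 CPM in HCC827GR to 395.6 CPM in HCC4006ER, with a median of 337.0 CPM. Without HepG2 the highest cell line exceeded the lowest 2.24-fold.

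The lung cell lines HCC827P (186.7 CPM) and HCC827GR (176.5 CPM) were the next lowest for NSD1, and their counting intervals overlapped. From the top, NSD1 ran from HCC4006ER, UWB1.289 (389.9 CPM), PancVB (383.5) and HCC4006P2 (366.9) through IGROV-1/CDDP (362.0), U100 (357.3), U10 (337.4) and HCC4006GR (336.6). HCC4006P1 (334.9), PancB1Q (330.6), IGROV-1 (313.2), PancB1V (296.6), HepG2S1 and HepG2S3 followed. Of the 16 neighbouring pairs in this order, 11 overlapped in their counting intervals or replicate ranges. The 5 steps beyond them lay between PancB1Q and IGROV-1, IGROV-1 and PancB1V, HepG2S1 and HepG2S3, HepG2S3 and HCC827P, and HCC827GR and HepG2.

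**Figure D1:**
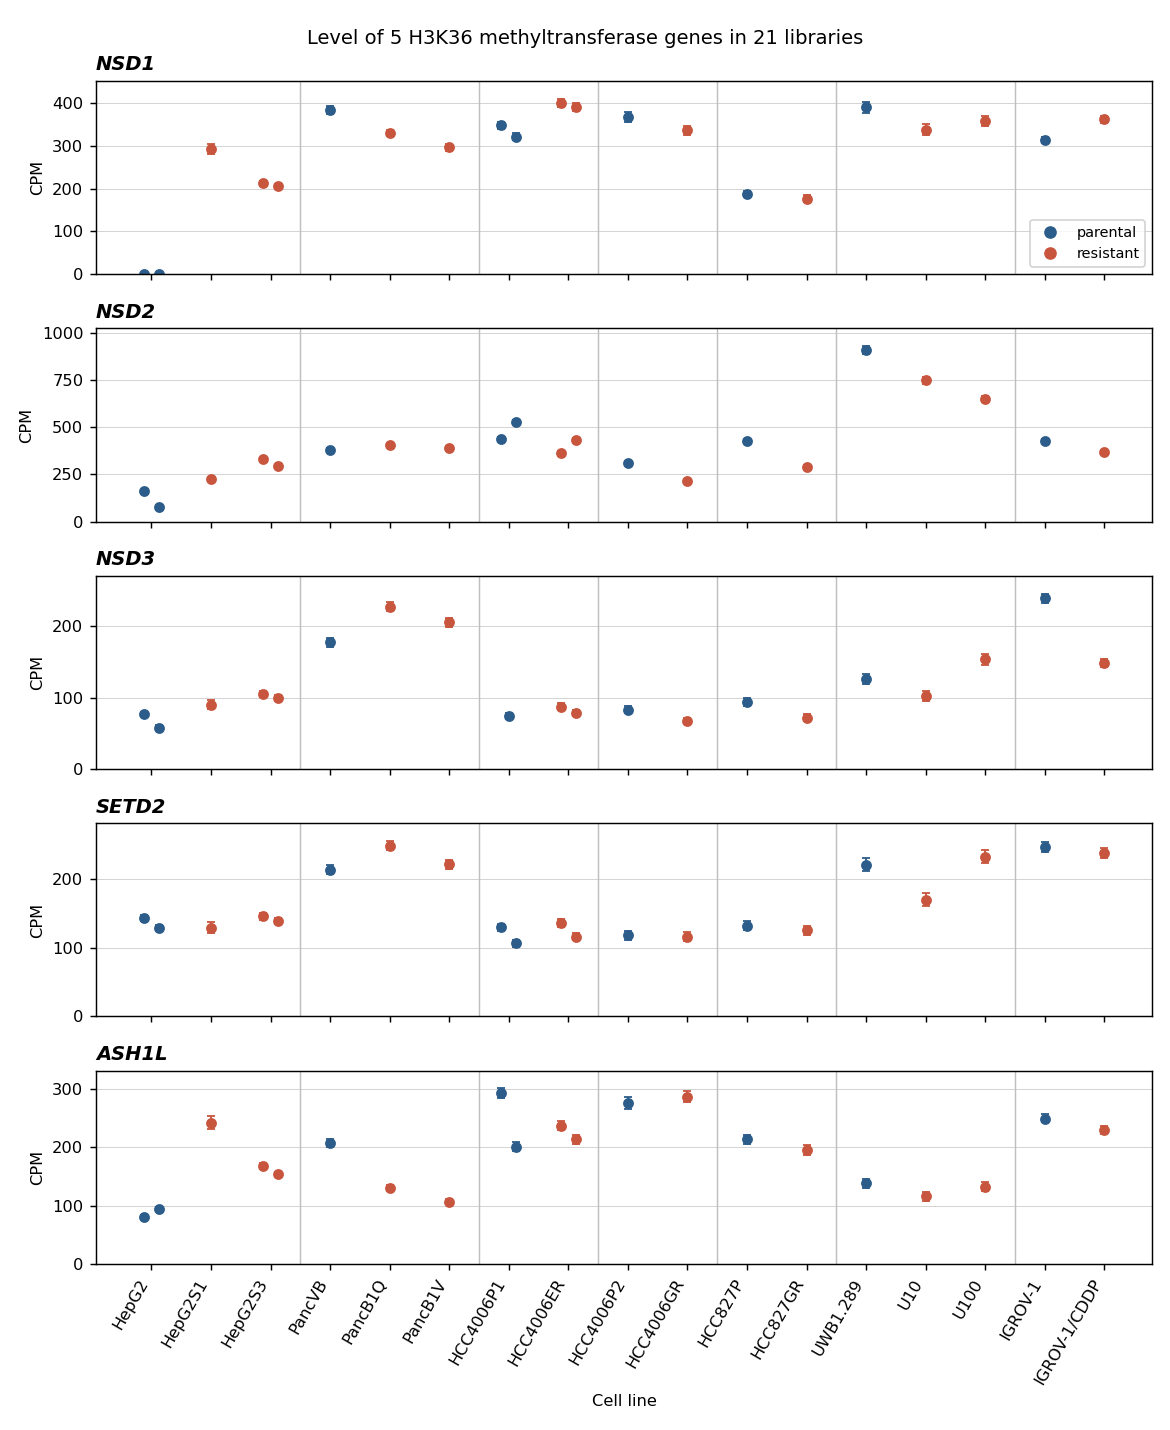
Level (CPM, vertical axes from 0) of the 5 genes in each library, by cell line, with blue points for parental and red points for resistant cell lines. Bars are 95% Wilson intervals of the count, grey lines separate the families, and NSD3 of HCC4006P1 replicate 1 is left out. NSD1 sits at 0.167 and 0.142 CPM in the 2 HepG2 libraries and between 176.5 and 400.7 CPM in all the others.

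Genes on either side of NSD1 were expressed in HepG2, with exceptions. Within 500 kb of either end, 23 other genes reached 5 CPM in at least 1 parental cell line. In HepG2, 12 of these lay within the range of the 14 cell lines outside its family, 10 lay below it and 1 above. No share over all genes is set beside these counts. Of the 23 genes, 3 were under 1 CPM in HepG2. ZNF346, a zinc finger gene starting 109.1 kb before NSD1, had 16.4 CPM in HepG2 against a range of 13.1 to 58.6. FGFR4, a receptor for fibroblast growth factors starting 44.9 kb before it, was the gene above the range, at 339.7 CPM against 1.92 to 60.4. On the other side, RAB24, a small GTPase gene, had an HepG2 level within its range of 3.06 to 9.30 CPM, and LMAN2, a cargo receptor of the secretory pathway, had 157.8 CPM against 98.5 to 333.1. Of the genes below their range, UIMC1, a DNA repair gene, had 39.2 CPM against 45.6 to 75.1, and PRELID1, which lies between RAB24 and LMAN2, had 27.5 CPM against 28.0 to 115.8. Farther below were PDLIM7 (39.8 CPM against 56.4 to 232.6), DDX41 (59.3 against 88.6 to 179.8) and GRK6 (30.7 against 42.6 to 136.5). Genes on both sides of NSD1 were therefore detected in the same libraries, at levels below, within or above their range.

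HepG2 was nevertheless on the low side over this neighbourhood. The median difference in log2(CPM + 1) between HepG2 and the median of the 14 cell lines was -0.95 over the 23 genes, against -0.29 over all 13868 genes with 5 CPM in a parental cell line. NSD1 itself was at -8.19, and 13 of those genes, NSD1 included, were at least as low. The lowest of the 23 neighbours was UNC5A, a netrin receptor gene, at -2.21, whose 0.05 CPM in HepG2 lay inside the range of 0 to 51.1 CPM in the other cell lines.

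**Figure D2:**
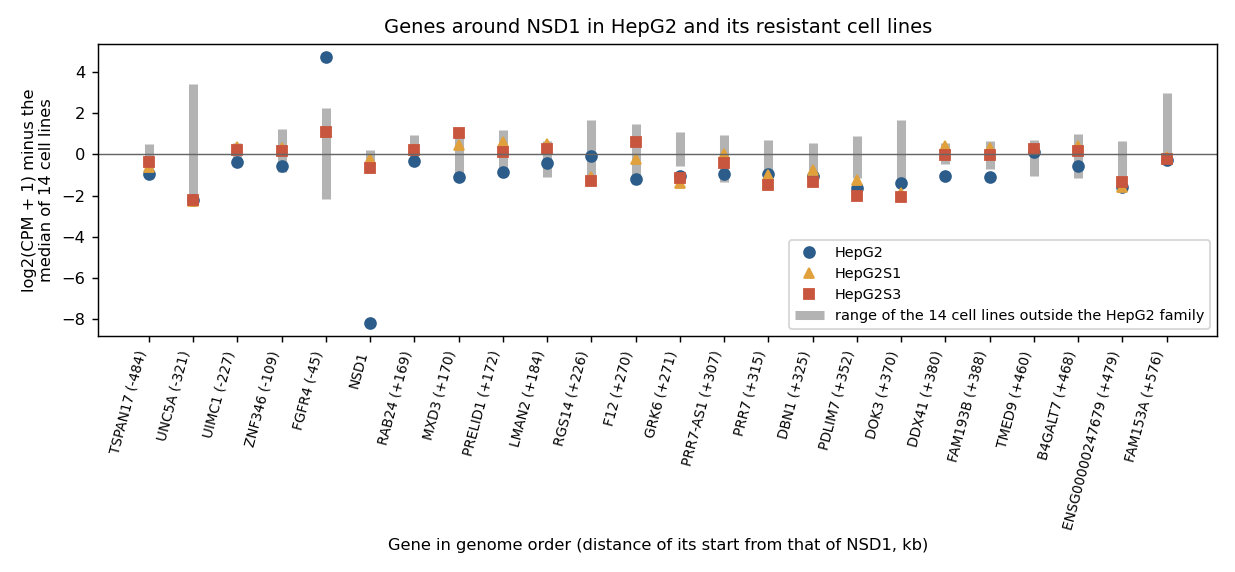
Level of NSD1 and of 23 genes around it, in genome order, as log2(CPM + 1) minus the median of the 14 cell lines outside the HepG2 family, with the range of those cell lines as grey bars. NSD1 in HepG2 is at -8.19, FGFR4 at 4.71, and the other genes in HepG2 are at -2.21 or above.

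NSD1 was one of a small group of genes with this pattern. Of 7235 genes with at least 10 CPM in each of the 16 other cell lines, 47 (0.650%), NSD1 included, had under 1 CPM in both HepG2 libraries. This count was chosen after the values were seen. Ordered by the lowest level among the 16 cell lines, NSD1 was the fifth. Before it came MSN (moesin, which links actin to the membrane), LDHB (a lactate dehydrogenase subunit), ANXA1 (annexin A1) and GSTP1 (a glutathione transferase). By contrast, 2 genes, MAP9 and ZNF141, had under 1 CPM in HepG2, HepG2S1 and HepG2S3 and at least 10 CPM in each of the other 14 cell lines.

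Of the 5 genes whose order over the 17 cell lines was most like that of NSD1, CAMK1D was also nearly absent in HepG2, and the other 4 were not. The highest Spearman coefficients on log2(CPM + 1) were those of SAP30L (a Sin3 complex protein, rho = 0.86, Pearson r = 0.45), SLC25A27 (a mitochondrial carrier, rho = 0.84, r = 0.28), RFXANK (rho = 0.83, r = 0.33), LRRC47 (rho = 0.82, r = 0.33) and CAMK1D (a calmodulin-dependent kinase, rho = 0.81, r = 0.65). Over the 14 cell lines outside the HepG2 family, their rho was 0.83, 0.81, 0.82, 0.80 and 0.71 and their r was 0.65, 0.73, 0.70, 0.72 and 0.62. CAMK1D had 0.345 CPM in HepG2, 8.28 CPM in HepG2S1, 12.0 CPM in HepG2S3 and 2.82 to 113.6 CPM in those 14 cell lines. SAP30L had 13.5 CPM in HepG2 and 12.8 to 45.3 CPM in the 14, and SLC25A27, RFXANK and LRRC47 in HepG2 also lay within their ranges. All values of a cell line come from the same libraries and families share a parent, so these coefficients are descriptions only.

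NSD2 varied the most after NSD1. It ranged from 120.9 CPM in HepG2 to 910.6 CPM in UWB1.289, with a median of 390.4 CPM. The ovarian UWB1.289, U10 (749.0 CPM) and U100 (648.6 CPM) were the highest of the 17 cell lines, and each of these steps exceeded the counting intervals. The HepG2 libraries were the lowest, but replicate 1 held 4919 counts (164.6 CPM) and replicate 2 held 2172 (77.1 CPM). The same 2 libraries differed in proliferation markers, with MKI67 at 177.3 and 17.5 CPM and the sum of MKI67, TOP2A, CCNB1, CDK1, MCM2 and PCNA at 1137 and 339.8 CPM, the higher value in replicate 1 for each of the 6. That sum was 3417 and 3042 CPM in the HepG2S3 libraries, and its part in the NSD2 values was not tested. Against the summed proliferation markers, NSD2 had rho = 0.24 over 17 cell lines and 0.17 over the 14 outside the HepG2 family. The same coefficients were higher for NSD3 (0.66 and 0.67) and SETD2 (0.56 and 0.64). They were -0.08 and -0.17 for NSD1, and 0.06 and -0.13 for ASH1L. TACC3, a mitotic spindle gene on chromosome 4, where NSD2 also lies, was the gene nearest to NSD2 (rho = 0.93 and 0.93, r = 0.95 and 0.96). The splicing factor SF3B2 followed (rho = 0.89 and 0.85, r = 0.80 and 0.81).

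NSD3 was lowest in HCC4006GR (66.8 CPM) and HepG2 (67.2 CPM) and highest in IGROV-1 (238.8 CPM), PancB1Q (227.1 CPM) and PancB1V (205.5 CPM). HCC4006P1 replicate 1 listed 0 NSD3 counts and replicate 2 held 1147 (74.0 CPM). Since chromosome 8 lies in the stretch where replicate 1 has almost no counts, that 0 is not a level, and NSD3 of HCC4006P1 was taken from replicate 2 alone. The libraries of HCC4006ER had 87.5 and 78.4 CPM, close to it. KIF15 (rho = 0.91 and 0.89 over 17 and 14 cell lines, r = 0.81 and 0.83) and ESPL1 (rho = 0.91 and 0.90, r = 0.77 and 0.78), both genes of mitosis, were nearest to NSD3.

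SETD2 was the most even member with HepG2 included, with 116.4 CPM in HCC4006GR and 249.2 CPM in PancB1Q, a 2.14-fold range, and 14 of its 16 neighbouring pairs overlapped. It fell into higher cell lines (pancreas and ovary, from 170.2 CPM in U10) and lower ones (liver and lung, up to 142.3 CPM in HepG2S3), with HepG2 libraries at 143.9 and 128.9 CPM. SETD2 and NSD3 kept nearly the same order over the cell lines (rho = 0.90 over 17 and 0.91 over 14), while NSD1 and SETD2 did not (0.08 and -0.06). Nearest to SETD2 were SFMBT1 (rho = 0.94 and 0.93, r = 0.80 and 0.86) and WDR82, a subunit of an H3K4 methyltransferase complex (rho = 0.92 and 0.92, r = 0.87 and 0.90), both of which lie on chromosome 3, as SETD2 does.

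ASH1L was lowest in HepG2 (80.4 and 94.6 CPM) and highest in HCC4006GR (286.5 CPM) and HCC4006P2 (275.7 CPM). The pancreatic PancB1V (106.7 CPM) and the ovarian U10 (115.8 CPM) stood next to HepG2. In HCC4006P1 the replicates differed, with 292.9 and 201.2 CPM, a gap wider than the 236.7 and 213.4 CPM of HCC4006ER. CDC42SE1 (rho = 0.93 and 0.90, r = 0.93 and 0.92) and TOR1AIP2 (rho = 0.92 and 0.91, r = 0.91 and 0.91), both on chromosome 1 as ASH1L is, were nearest to it.

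Levels of different genes were compared per kilobase of exon and scaled to a sum of 1000000 per library (TPM), on the labels' account that all libraries came from a stranded kit that reads whole transcripts. NSD2 had the highest median over the cell lines (85.4 TPM), followed by NSD1 (67.3), ASH1L (63.2), SETD2 (44.9) and NSD3 (30.2). In HepG2, NSD1 made up 0.0270% of the summed TPM of the 5 genes, SETD2 36.3%, ASH1L 24.2%, NSD2 22.7% and NSD3 16.8%. In the other cell lines NSD1 made up between 14.2% (HCC827P) and 26.6% (HCC4006ER). The 5 genes summed to 120.9 TPM in HepG2 and to 220.3 (HCC827GR) to 441.5 TPM (UWB1.289) elsewhere. The 4 genes without NSD1 summed to 120.8 TPM in HepG2 and 181.1 TPM in HepG2S1, the next lowest.

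**Figure D3:**
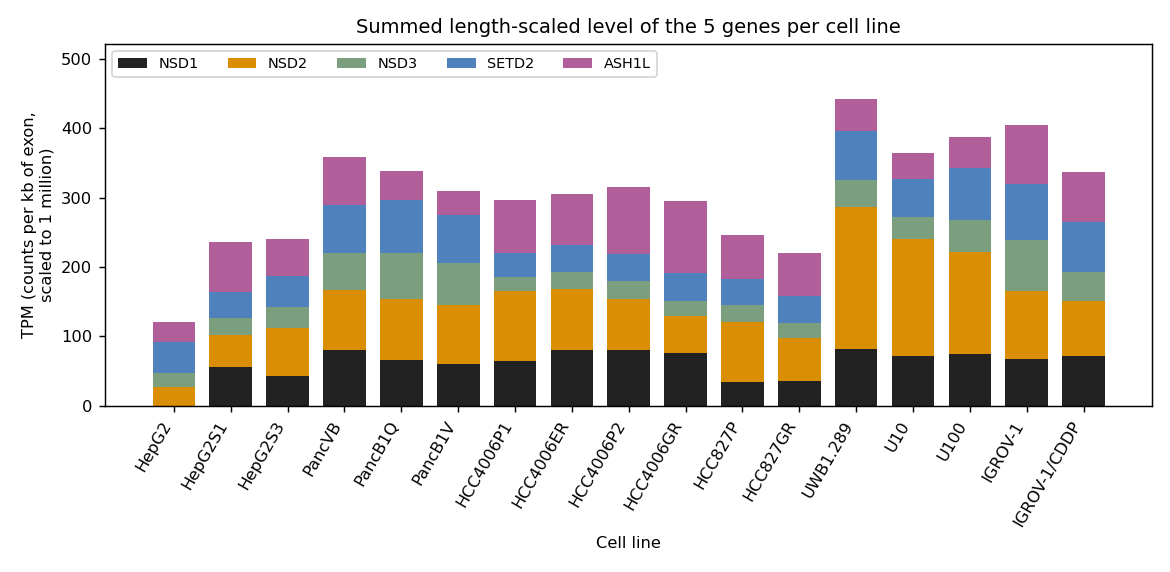
Stacked length-scaled level (TPM, vertical axis from 0) of the 5 genes in each of the 17 cell lines, replicate libraries averaged. HepG2 is the lowest at 120.9 TPM with no visible NSD1 band, and UWB1.289 the highest at 441.5 TPM.

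Changes between a resistant cell line and its parental cell line were taken on log2(CPM + 1), a scale on which the change of a low gene is understated. They carry no test, since 8 of the 10 pairs include a cell line with 1 library. Counts of pairs beyond counting error are given without a share over all genes beside them. In the 8 pairs outside HepG2, the 40 changes of the 5 genes ran from -0.95 to 0.35, and 0 of 40 reached 2-fold. Among all genes with a mean of 1 CPM, 2-fold was reached by 16.1% (PancB1Q) and 16.7% (PancB1V) in the pancreatic pairs. The shares were 23.4% for HCC4006ER, 16.1% for HCC4006GR and 19.3% for HCC827GR, and 12.2% for U10, 8.94% for U100 and 13.4% for the IGROV-1/CDDP pair. In each of the HepG2 pairs, 2 of the 5 genes reached 2-fold, NSD1 and ASH1L in HepG2S1 and NSD1 and NSD2 in HepG2S3, where 45.3% and 46% of all genes did. NSD1 of HepG2 was what the set was chosen for, so nothing is read from its part in these counts.

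NSD1 differed from HepG2 by 7.99 in HepG2S1 and 7.51 in HepG2S3. Over all genes the median differences in these pairs were 0.27 and 0.29, so that changes relative to the typical gene are smaller by these amounts. In the other 8 pairs NSD1 was higher in HCC4006ER (0.24) and IGROV-1/CDDP (0.21) beyond counting error, lower beyond it in 5 pairs down to -0.37 in PancB1V, and within it in HCC827GR (-0.08, 95% counting interval -0.17 to 0.00). Both resistant cell lines of PancVB and both of UWB1.289 thus had less NSD1 than their parent, with differences between -0.13 and -0.37. With TMM-scaled library sizes the differences of NSD1 were -0.04 in PancB1Q, -0.04 in HCC4006GR and 0.14 in HCC4006ER.

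NSD2 was lower beyond counting error in 6 of the 8 pairs outside HepG2, with differences between -0.22 (IGROV-1/CDDP) and -0.56 (HCC827GR). Among all genes of their pairs, these 6 changes lay between percentile 10.7 (U100) and 37.2 (IGROV-1/CDDP), and U10 and U100 share a parent. In HCC4006ER the change was -0.28, with an SD over pairings of 0.21. NSD2 was 0.10 higher in PancB1Q and 0.04 higher in PancB1V, the latter within counting error (-0.00 to 0.09). With TMM-scaled library sizes it was 0.28 higher in PancB1Q and at -0.13 in IGROV-1/CDDP. In HepG2S1 and HepG2S3 it was 0.90 and 1.36 higher, with SDs over the pairings of libraries of 0.77 and 0.63, since the HepG2 libraries differ. Against HepG2 replicate 1 alone, the difference of HepG2S1 was 0.46 and against replicate 2 alone 1.54.

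ASH1L had the largest change outside HepG2, in PancB1V. It fell by 0.66 in PancB1Q, from 206.7 to 130.1 CPM, and by 0.95 in PancB1V, to 106.7 CPM, beyond counting error in each. It was 1.46 higher in HepG2S1 and 0.87 higher in HepG2S3, with SDs over pairings of 0.16 and 0.15. Of the other 6 pairs, 4 were lower beyond counting error (-0.12 to -0.25), though the SD over pairings in HCC4006ER (0.32) exceeded its change of -0.13 and the change in IGROV-1/CDDP was -0.04 with TMM-scaled library sizes.

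NSD3 fell by 0.69 in IGROV-1/CDDP, the largest change outside HepG2 after that of ASH1L in PancB1V, and was lower in HCC4006GR (-0.31), HCC827GR (-0.38) and U10 (-0.30). It was higher in both pancreatic pairs (0.35 and 0.21), U100 (0.28) and HCC4006ER (0.16, against replicate 2 of HCC4006P1 alone). In HepG2S1 and HepG2S3 it was 0.42 and 0.60 higher, and 0.004 and 0.30 higher with TMM-scaled library sizes. U10 and U100 derive from the same parent, and U100 exceeded U10 by 0.58 for NSD3 and by 0.45 for SETD2. SETD2 changed the least, between -0.38 in U10 and 0.22 in PancB1Q, with 6 of 10 pairs within counting error. Its direction in HepG2S3, HCC4006ER, HCC4006GR and IGROV-1/CDDP turned with other library sizes. With TMM-scaled sizes SETD2 was at -0.49 in HepG2S1 and 0.39 in PancB1Q, and NSD3 at 0.04 in HCC4006ER.

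**Figure D4:**
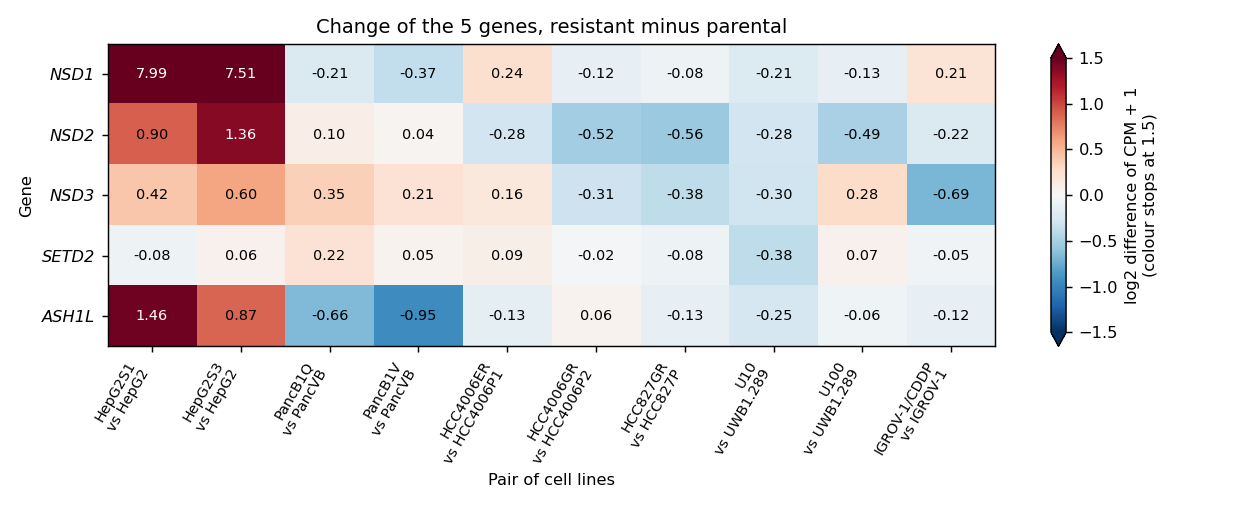
Difference in log2(CPM + 1), resistant minus parental, of the 5 genes (rows) in the 10 pairs (columns), printed in each cell, red for higher and blue for lower, with colours that stop at 1.5. NSD1 is 7.99 and 7.51 higher in the HepG2 pairs, and outside them the values run from -0.95 to 0.35.

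The HepG2 and HCC4006P1 pairs have 2 libraries on each side and were tested across all genes with the quasi-likelihood test of edgeR, adjusted by the Benjamini-Hochberg procedure. Of 16929 genes tested in HepG2S3 against HepG2, 31.4% were higher and 32.1% lower at an adjusted p under 0.05. Of the 4 members other than NSD1, ASH1L rose (log2 fold change 0.56, SE 0.14, adjusted p = 0.0169 with edgeR) and 3 did not pass. ASH1L was higher in both HepG2S3 libraries (167.9 and 153.5 CPM) than in both HepG2 libraries, but the call is lost without HepG2S3 replicate 1 (edgeR adjusted p = 0.170) or replicate 2 (0.109). NSD2 was at 329.4 and 295.2 CPM in HepG2S3, above both HepG2 libraries, with a log2 fold change of 1.04 (SE 0.37, edgeR adjusted p = 0.0529). With DESeq2 its adjusted p was 0.0125, and over all alternatives it ran from 1.31e-45 to 0.103. Leaving out 1 library leaves a lone library that is assumed to vary like the other group, and the smallest of these p-values rest on that. The fold change was 0.58 without HepG2 replicate 2 and 1.71 without replicate 1.

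NSD3 had 0.28 (SE 0.18, edgeR adjusted p = 0.221) and SETD2 -0.26 (SE 0.13, edgeR adjusted p = 0.139). Their libraries overlapped for SETD2 and not for NSD3, whose HepG2S3 libraries (105.0 and 99.2 CPM) lay above those of HepG2 (76.4 and 58.1 CPM). Without HepG2 replicate 1, NSD3 passed (0.50, edgeR adjusted p = 1.38e-05), and without HepG2 replicate 2 SETD2 passed (-0.36, edgeR adjusted p = 0.00117). For NSD1 the fitted log2 fold change was 10.0 and is a description. Liver markers and proliferation markers also differed in this contrast, with the values given above. Of the proliferation markers, MCM2, PCNA and CDK1 passed, and MKI67 (edgeR adjusted p = 0.130), TOP2A (0.101) and CCNB1 (0.147) did not.

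Of 12791 genes tested in HCC4006ER against HCC4006P1, 24.1% were higher and 24.9% lower. Without the replicate number as a block, the count of members past the threshold was 0 of the 4 tested with edgeR and 0 with DESeq2. None then had an unadjusted edgeR p under 0.05. With that block NSD2 passed, as given in the last section. NSD1 was at 400.7 and 390.6 CPM in HCC4006ER and at 348.1 and 321.7 CPM in HCC4006P1, without overlap, with a log2 fold change of 0.16 (SE 0.11, edgeR adjusted p = 0.260). NSD2 had -0.37 (SE 0.16, edgeR adjusted p = 0.104), with 363.3 and 430.8 CPM against 438.3 and 528.9 CPM. It passed without HCC4006P1 replicate 1 (-0.54, edgeR adjusted p = 1.32e-06). ASH1L had -0.21 (SE 0.17, edgeR adjusted p = 0.351), passed without HCC4006P1 replicate 2 (-0.44, edgeR adjusted p = 1.71e-04) and was at 0.03 without replicate 1. SETD2 had 0.01 (SE 0.14, edgeR adjusted p = 0.941). NSD3 was not tested in this pair.

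The difference between these changes was tested as an interaction over the 8 libraries, where 27.7% of 14478 genes had a higher and 28.2% a lower change in HCC4006ER. NSD2 and ASH1L, of the 3 members other than NSD1 that could be tested, had a lower change in HCC4006ER than in HepG2S3. The difference was -1.45 for NSD2 (SE 0.43, edgeR adjusted p = 0.0187) and -0.79 for ASH1L (SE 0.25, edgeR adjusted p = 0.0224). NSD2 lost its call without HCC4006ER replicate 1 (edgeR adjusted p = 0.0729), HCC4006P1 replicate 2 (0.0719) or HepG2S3 replicate 1 (0.0591). ASH1L lost its call without HCC4006ER replicate 1 (edgeR adjusted p = 0.0555) or 2 (0.0861), HCC4006P1 replicate 1 (0.0544), or HepG2S3 replicate 1 (0.0833) or 2 (0.0530). SETD2 had a difference of 0.25 (SE 0.20, edgeR adjusted p = 0.324).

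Over 7 parental cell lines, 7 resistant profiles were compared with 7 parental ones, each summed over the libraries of a family, and 0% of 12621 genes passed with edgeR, while 562 had an unadjusted p under 0.05 and DESeq2 called 67 higher and 20 lower. The log2 fold change was -0.12 for NSD2 (SE 0.20, edgeR adjusted p = 0.983), -0.08 for ASH1L (SE 0.17, edgeR adjusted p = 0.986) and -0.03 for SETD2 (SE 0.11, edgeR adjusted p = 0.990). No common change of these 3 genes was detectable at this number of families. NSD1 had 0.47 with HepG2 and -0.02 without it. Without HepG2, NSD2 had -0.30 (edgeR adjusted p = 0.751) and ASH1L -0.20 (edgeR adjusted p = 0.823). Without the HCC4006P1 family they had -0.09 and -0.06. HCC4006P1 and HCC4006P2 have the same cell line identifier in the study and were counted here as separate families. With these summed together, 0 genes passed with edgeR, and NSD2 had -0.07, ASH1L -0.09 and SETD2 -0.04.

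The wider H3K36 pathway was described by 31 genes in 5 lists. In HepG2S3 against HepG2, 30 were tested, of which 5 rose (16.7%, against 31.4% of all genes), 9 fell (30.0%, against 32.1%) and 16 did not pass, with a median log2 fold change of -0.32 against -0.01 over all genes. None of the 6 listed demethylases of the KDM2 and KDM4 families rose and 4 fell. The largest change was that of KDM4C (-1.20, SE 0.15, edgeR adjusted p = 0.00141). Among the 13 readers, 4 rose and 2 fell. DNMT3A, a de novo DNA methyltransferase, fell from 65.5 to 12.1 CPM (-2.76, SE 0.30, edgeR adjusted p = 0.00100). MTF2, a Polycomb-associated Tudor protein, fell by 1.12 on the log2 scale. PHF19, another Polycomb-associated reader, rose from 27.6 to 137.7 CPM (1.99, SE 0.53, edgeR adjusted p = 0.0213), MSL3 of the MSL acetyltransferase complex rose from 12.6 to 61.0 CPM (1.96), and PSIP1 (LEDGF) rose from 66.6 to 280.7 CPM (1.75). The change of PHF19 was 3.04 without HepG2 replicate 1 and 1.38 without replicate 2. Of the 6 partners 0 rose and 2 fell, of the 3 other SET domain genes tested 1 fell, and of the 2 H3.3 genes 1 rose.

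In HCC4006ER against HCC4006P1, 26 of the 31 genes were tested, and 5 rose (19.2%, against 24.1% of all genes), 7 fell (26.9%, against 24.9%) and 14 did not pass, with a median of -0.15 against 0.01 over all genes. Here 3 of the 5 KDM2 and KDM4 family genes tested rose and 0 fell. Whether each of them acts on H3K36 was not examined. KDM4D rose from 1.45 to 4.49 CPM (1.53, SE 0.32, edgeR adjusted p = 0.00817) and KDM4B, an H3K9 and H3K36 demethylase, from 17.9 to 32.3 CPM (0.77, SE 0.15, edgeR adjusted p = 0.00568). SETMAR, a SET domain protein fused to a transposase, rose from 3.38 to 6.89 CPM (0.94). The readers MORF4L1, from 472.3 to 308.2 CPM (-0.70), and ZMYND11 (-0.61) fell, as did SMYD2 (-0.68), a lysine methyltransferase of several substrates. SMYD2 had also fallen by 0.67 in HepG2S3. The calls of SMYD2 and ZMYND11 are lost without either library of HCC4006ER, those of MORF4L1 and SETMAR without replicate 1 alone and that of KDM4B without replicate 2 alone, with edgeR adjusted p between 0.0603 and 0.295. With all genes kept, the calls of KDM4D (edgeR adjusted p = 0.0694), SMYD2 (0.0588) and SETMAR (0.146) are lost.

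The changes of 11 of 26 pathway genes differed between the pairs, 8 in the direction of a higher (30.8%, against 27.7% of all genes) and 3 of a lower change in HCC4006ER (11.5%, against 28.2%). The largest differences were those of DNMT3A (2.32, SE 0.34), SETMAR (1.39) and KDM4B (1.22) and, in the other direction, of MSH6, a mismatch repair protein that reads H3K36 trimethylation (-2.22, SE 0.28), MORF4L1 (-0.96) and ZMYND11 (-0.60). The call of ZMYND11 was lost in 8 of 11 alternatives and that of SETMAR without HCC4006ER replicate 1 (edgeR adjusted p = 0.0562). In the 7 profiles, 0 of the 26 pathway genes tested passed with edgeR.

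**Figure D5:**
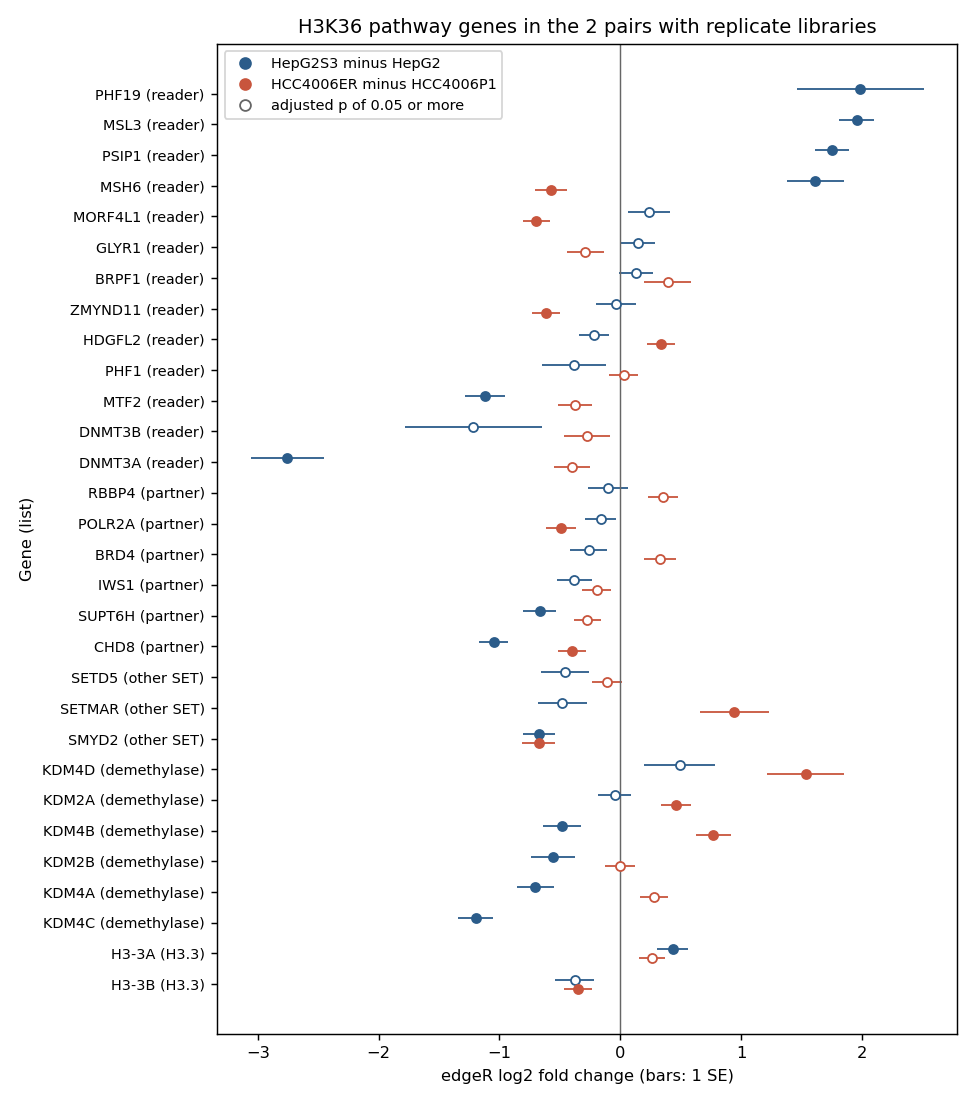
edgeR log2 fold change of 30 H3K36 pathway genes (horizontal axis, bars 1 SE) in HepG2S3 against HepG2 (blue) and HCC4006ER against HCC4006P1 (red), with filled points for an adjusted p under 0.05. DNMT3A is the lowest at -2.76 and PHF19 the highest at 1.99, both in the HepG2 pair.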

How the data were processed

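Poly(A) RNA was sequenced in 21 libraries. The labels name a stranded kit for all of them, while the study's methods also describe a 3′ end kit. Per the labels, the authors mapped reads to hg19 with Bowtie and TopHat and deposited whole-number counts per gene made with HTSeq, without normalization. Between 28.0% and 42.8% of the reads that HTSeq listed were not assigned to a single gene and were left out. These fell on no gene, could belong to several genes, or aligned to several places, the last being the largest kind in each library. Groups and replicate numbers follow the labels. Positions, symbols and exon lengths came from GENCODE 44 on GRCh37, which matched 45100 of 53515 genes. CPM were taken over genes outside the stretch without counts in HCC4006P1 replicate 1, log2 changes used a pseudocount of 1 CPM, and intervals are 95% Wilson intervals (combined over a pair as the square root of summed squares). edgeR 4.0.16 (glmQLFit and glmQLFTest, TMM, filterByExpr, adjusted p under 0.05) was run on 4 comparisons, DESeq2 1.42.0 was an alternative, and the 7 profiles had the parental cell line as a block. Of these comparisons, only the edgeR test of HepG2S3 against HepG2 was tried on simulated counts, with 200 genes changed 4-fold. The simulated libraries had the same spread for all genes, unlike the real ones. R 4.3.3, Python 3.11.15, pandas 2.3.3, scipy 1.17.1 and matplotlib 3.10.9 were used.

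Alternatives were other library sizes, a pseudocount of 0.1 CPM, other gene filters, the replicate number as a block, and each library or family left out. The members and lists were chosen with earlier results of these data known. Of the lists, the text names the genes past the threshold with the largest change, at most 3 in each direction per comparison, and the 5 genes nearest to NSD1 and 2 nearest to each other member by Spearman coefficient, with a mean of at least 5 CPM. Proliferation markers were listed after the values were seen. KRT19, KRT7 and SOX9 (pancreas), PAX8, WT1 and MUC16 (ovary) and CDH5 (vessel) were also examined as tissue markers. The pancreas list summed to 734.2 CPM in HepG2 and 3801 CPM in HepG2S3. KRT7 rose there from 1.27 to 3598 CPM, while KRT19 fell from 427.8 to 202.3 CPM and SOX9 from 305.2 to 0.926 CPM. The ovary list summed to 604.4 CPM in UWB1.289, 891.8 CPM in IGROV-1 and 875.1 CPM in the lung cell line HCC827P. WT1 was at 0.226 CPM in UWB1.289 and 0 in IGROV-1. CDH5 reached 105.9 CPM in U10.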

Additional observations from a re-analysis of the deposited data

Results flagged for a closer look

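Of the 5 genes in parental and in resistant cell lines, 9 groups were examined for a cell line far from the others (Dixon's limit), and none held one. NSD1 in the parental cell lines was left out, since the genes were chosen on its value in HepG2.

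The change in NSD2 differed between the pairs with replicate libraries, by -1.45 on the log2 scale (HCC4006ER minus HepG2S3), as did that of ASH1L, by -0.79. For both, the interaction passed the threshold over all genes (edgeR adjusted p = 0.0187 and 0.0224), as it did for 27.7% of genes in one direction and 28.2% in the other. NSD2 was higher in 2 of 2 HepG2S3 libraries than in either HepG2 library, and the HepG2 libraries themselves differed (164.6 and 77.1 CPM).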

How the results depend on the processing

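The counts of genes called stayed within 1.5 times the reported ones in 68 of 74 alternatives. Keeping all genes in HCC4006ER against HCC4006P1 gave 1673 higher and 1744 lower (3084 and 3182 as reported). Leaving out 1 library there gave 1990 to 4181 higher and 2061 to 4210 lower. Over the 7 profiles DESeq2 called 67 higher and 20 lower, where edgeR called 0. The cause was not tested. With the replicate number as a block, 5279 genes were higher and 5282 lower in HepG2S3, and 3873 and 3914 in HCC4006ER. NSD2 then passed in HepG2S3 (edgeR adjusted p = 0.00620) and in HCC4006ER (0.00541). The difference between the 2 libraries of a cell line correlated over genes at 0.05 between HepG2 and HepG2S3. Between HCC4006P1 and HCC4006ER it correlated at 0.41. The main fits did not take the letters to pair the libraries, and whether they do is not given in the sources used here. Of 198 alternative values of the changes per pair, 162 moved by less than the replicate or counting error. SETD2 turned direction in HepG2S3 with TMM-scaled library sizes (-0.23) and ran from -0.016 to 0.14 with 1 library left out. In HCC4006ER it turned with total counts (-0.055) and TMM-scaled sizes (-0.0067) and ran from -0.042 to 0.24 with 1 library left out. ASH1L in HCC4006ER ran from -0.38 to 0.16 with 1 library left out. NSD1 in the HepG2 pairs rests on 5 and 4 counts and on the pseudocount: at 0.1 CPM its changes were 10.2 and 9.68.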
